A study of Rattus norvegicus with 24 samples.

Results

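The genes described here encode 10 chaperones and folding helpers of the endoplasmic reticulum (ER): Hspa5, Hsp90b1, Dnajb9, Dnajc3, Pdia4, Pdia6, Calr, Canx, Sdf2l1 and Herpud1. They were chosen by name as known ER chaperones, with earlier results of these data known. Each is read from the probe sets annotated to it. This gave 12 probe sets, 3 of them for Canx, and 10 of the 14217 genes measured. Expression was read on 24 single-colour Affymetrix arrays of INS-1E cells, a rat insulinoma line that makes insulin. The 8 groups of 3 arrays were cytokines with BRD0476, cytokines with DMSO, BRD0476 without cytokines, and DMSO without cytokines, each after 12 h and after 6 h. The cytokine cocktail held IL-1b at 10 ng/ml, IFN-g at 50 ng/ml and TNF-a at 25 ng/ml. BRD0476, a small molecule known for protecting beta cells from such cocktails, was used at 10 uM, and DMSO is its vehicle. All groups share 1 tumour-derived line and 1 growth medium. The labels do not say whether the arrays of a group came from separate cultures, so each p-value speaks for the spread among arrays alone, some of which may be technical.

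Proteins bound for secretion, insulin among them, fold in the ER. Hspa5 (BiP) and Hsp90b1 bind unfolded chains, Dnajb9 and Dnajc3 are J-domain partners of Hspa5, and Sdf2l1 is a co-factor found with it. Pdia4 and Pdia6 are disulfide isomerases, which make and reshuffle disulfide bonds. Calr (calreticulin) and Canx (calnexin) are calcium-binding lectins that hold newly glycosylated proteins. Herpud1 is an ER membrane protein that serves the degradation of misfolded proteins. When unfolded proteins build up, the sensors Perk, Ire1 and Atf6 start the unfolded protein response, which in many cell types raises the transcription of these genes through Atf6, Xbp1 and Atf4. In rat beta cells, inflammatory cytokines are known to deplete ER calcium and to engage parts of that response.

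RefSeq promoters of the rat build GRCr8, covering 250 bases before to 50 bases after the gene start, matched 9 of the 10 genes, all but Pdia6. The ER stress element was searched on both strands as CCAAT, then any 9 bases, then CCACG. It was found in 5 of the 9 promoters, those of Hspa5, Hsp90b1, Dnajc3, Calr and Canx, against 22 of all 33469 promoters (0.0657%). The second form of the element, ATTGG, then any 1 base, then CCACG, was found in Herpud1 and in 17 of all promoters (0.0508%). The XBP1 element TGACGTGG was found in none of the 9 and in 199 of all promoters (0.595%). The 4 promoters below belong to genes that moved in different directions with cytokines. They are given 5′ to 3′ along the gene, with element matches in capitals, and no match overlapped another. Hspa5 lies at chr3:38452766-38453065 on the plus strand with its match 43 to 25 bases before the start. Hsp90b1 lies at chr7:23012244-23012543 on the minus strand and holds 2 matches, the one nearer the start in reverse orientation. Calr lies at chr19:40213117-40213416 on the plus strand with its match in reverse orientation, and Herpud1 at chr19:10614658-10614957 on the minus strand. Matches are descriptions of letters and were not tested for binding, and their shares were not tested either. The elements and the genes were both taken as already known from the ER stress response. Finding them together is therefore no result of these data.
Hspa5: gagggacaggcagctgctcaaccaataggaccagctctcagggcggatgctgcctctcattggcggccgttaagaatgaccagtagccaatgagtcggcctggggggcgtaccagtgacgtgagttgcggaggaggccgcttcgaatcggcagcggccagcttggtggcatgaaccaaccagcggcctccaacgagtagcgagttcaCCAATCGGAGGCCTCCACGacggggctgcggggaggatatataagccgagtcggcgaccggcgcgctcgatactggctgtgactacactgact
Hsp90b1: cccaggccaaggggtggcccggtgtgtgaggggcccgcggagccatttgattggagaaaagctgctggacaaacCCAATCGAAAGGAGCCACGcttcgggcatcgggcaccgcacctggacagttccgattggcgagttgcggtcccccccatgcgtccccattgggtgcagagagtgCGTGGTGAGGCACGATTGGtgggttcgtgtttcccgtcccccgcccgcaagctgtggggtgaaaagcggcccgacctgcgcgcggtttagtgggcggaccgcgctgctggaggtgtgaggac
Calr: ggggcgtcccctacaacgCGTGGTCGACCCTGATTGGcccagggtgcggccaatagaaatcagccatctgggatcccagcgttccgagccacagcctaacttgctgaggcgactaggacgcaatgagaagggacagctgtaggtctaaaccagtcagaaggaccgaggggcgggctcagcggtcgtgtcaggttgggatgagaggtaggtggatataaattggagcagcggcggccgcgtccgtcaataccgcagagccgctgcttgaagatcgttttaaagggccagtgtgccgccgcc
Herpud1: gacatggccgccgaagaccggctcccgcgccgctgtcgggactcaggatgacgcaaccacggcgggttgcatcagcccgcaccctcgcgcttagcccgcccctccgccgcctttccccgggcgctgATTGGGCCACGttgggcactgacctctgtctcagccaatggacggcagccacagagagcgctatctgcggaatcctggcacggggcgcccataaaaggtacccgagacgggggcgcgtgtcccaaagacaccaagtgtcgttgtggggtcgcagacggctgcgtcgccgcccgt

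All 10 genes gave signal in every group. The lowest reading of any of them on any array was 8.49 on the log2 scale, where the lower quartile of all values was 3.84. Levels below are log2 intensities of the gene's probe set (for Canx, the one of 3 with the highest mean), and changes are differences of mean log2 intensity ± standard error. A gene was called, and is said to have risen or fallen, at an adjusted p under 0.05 in limma over all 14217 genes, with 3 arrays per group. Levels are not set against each other between genes, since probe sets differ in response.

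Arrays of a group correlated with r between 0.992 and 0.998, and array medians lay between 5.49 and 5.57. The labels were checked on 5 cytokine target genes, which all rose at 6 h and at 12 h in DMSO; Cxcl10, a chemokine, read 12.82 with cytokines and 4.01 without at 6 h. Beta cell markers lay above the lower quartile, with Ins1 between 14.41 and 14.60, Ins2 between 14.13 and 14.49 and Nkx6-1 between 6.90 and 9.50. With cytokines in DMSO, 87.5% of them were called lower at 6 h and 50% at 12 h, and 0% higher. The shares of all genes called lower were 27.4% and 29.9%. Markers of other cells were mostly near the lower quartile: the exocrine and ductal, leukocyte, fibroblast and endothelium lists had 4 of 6, 2 of 5, 3 of 5 and 2 of 4 genes below it. Sst averaged 3.76 and Ptprc 3.71, whereas Gcg, the glucagon gene, averaged 10.14. The summed linear intensity of the 4 other islet endocrine markers was 656 to 715 with cytokines and DMSO at 6 h, against 1177 to 1438 with DMSO alone. The same sums were 76607 to 77752 against 85536 to 94376 for the 8 beta cell markers, 83.7 to 97.9 against 143 to 170 for the 5 fibroblast markers and 59.2 to 66.1 against 89.2 to 109 for the 4 endothelium markers. At 12 h the same groups gave 926 to 1103 against 1243 to 1449 for the islet endocrine, 82923 to 85204 against 89163 to 93332 for the beta cell, 88.6 to 95.7 against 130 to 157 for the fibroblast and 68.5 to 76.4 against 124 to 130 for the endothelium markers. Among these markers, Gcg averaged 9.93 with cytokines and DMSO against 10.36 with DMSO alone at 12 h, and 9.33 against 10.29 at 6 h. Pdgfra, of the fibroblast list, averaged 5.11 against 6.51 at 12 h and 4.96 against 6.58 at 6 h, and Kdr, of the endothelium list, 4.37 against 6.41 and 4.08 against 5.83. All 3 genes were called lower at both times. Of the endothelium list, 25% were called lower and 25% higher at each time. Of the fibroblast list 20% were called lower and 0% higher, and of the islet endocrine list 25% and 0%. The sums are therefore not a reading of the whole lists. The sums of exocrine and leukocyte markers overlapped between these groups at both times. The part of these differences in the chaperone changes was not tested. On the first component of the spread within groups, which held 32.8% of it, 3 arrays stood apart: replicate 3 of cytokines with DMSO at 12 h (score -21.5), replicate 3 of cytokines with DMSO at 6 h (-21.3) and replicate 1 of cytokines with BRD0476 at 12 h (-12.7), with every other array at -4.16 or above. Results that rest on them are also given without them, an alternative added after the data were seen. The score is computed from the same arrays and genes, so a call gained without them describes the other arrays only.

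**Figure D1:**
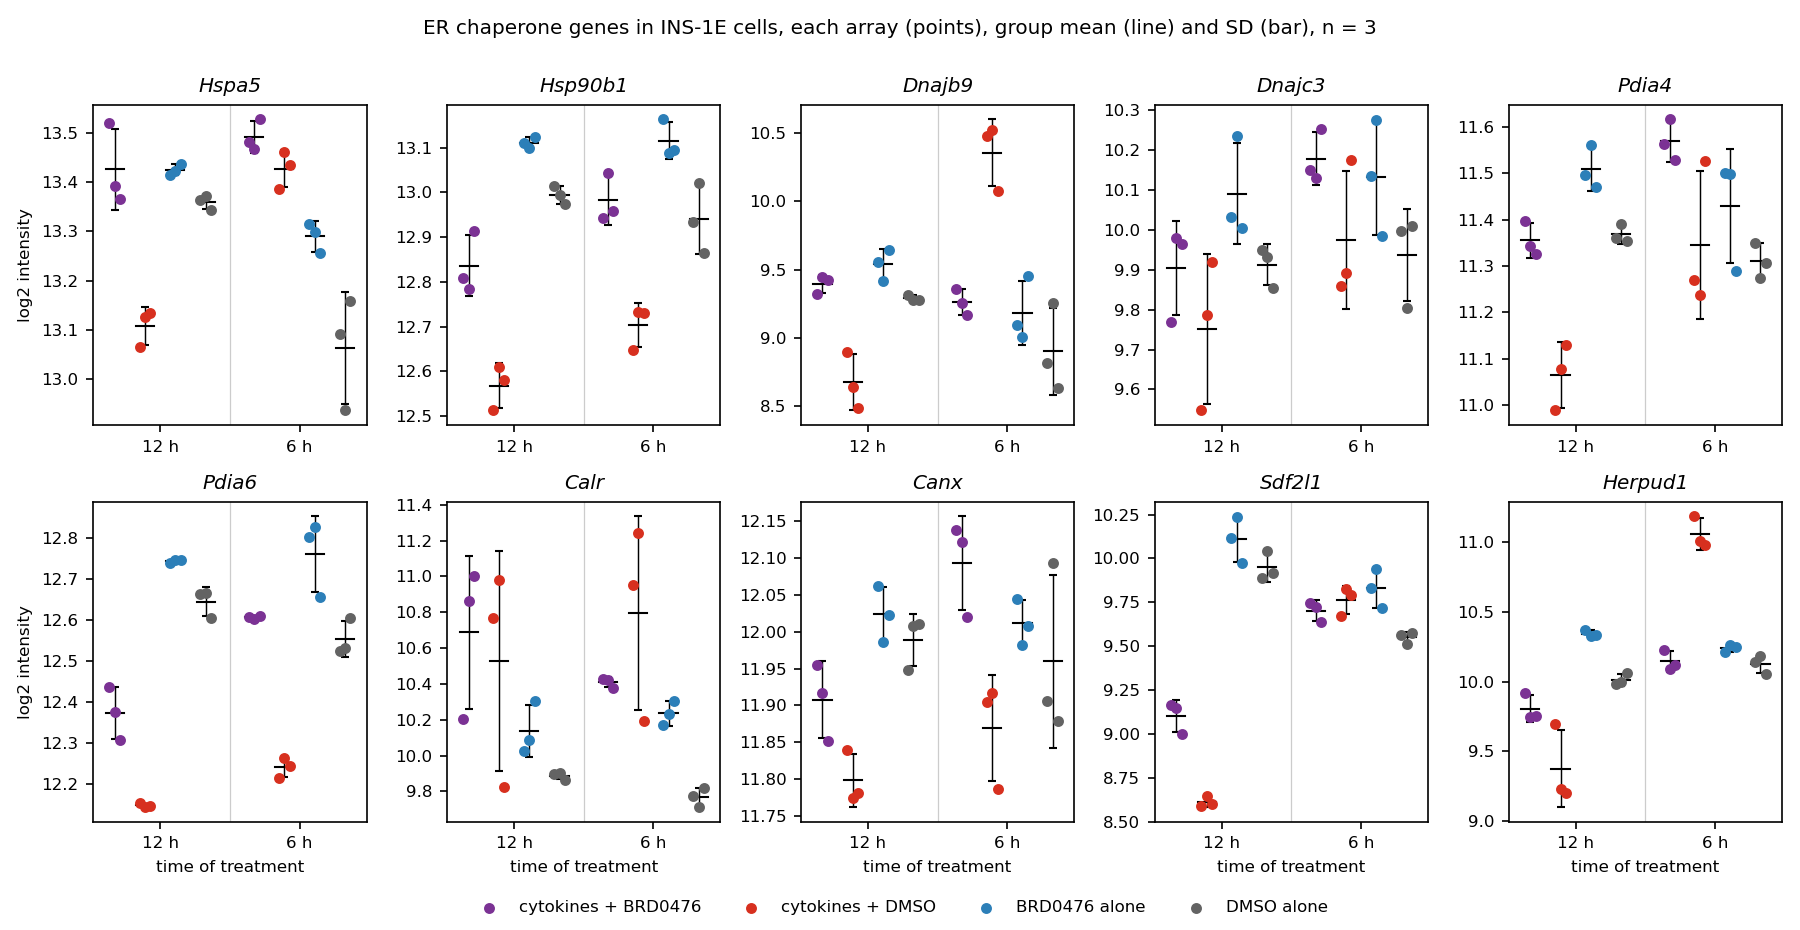
Log2 intensity (vertical axis, separate scale in each panel) of the 10 ER chaperone genes on all 24 arrays, by time and treatment; points are arrays, horizontal lines group means and bars the SD over 3 arrays. On the probe sets shown, cytokines with DMSO at 12 h was the lowest group for 8 of the 10 genes, and the same treatment at 6 h the highest for Dnajb9, Herpud1 and Calr.

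The 10 genes did not share 1 profile over the 8 groups. Cytokines with DMSO at 12 h had the lowest mean for 8 genes, all but Hspa5 and Calr, which were lowest with DMSO alone at 6 h. The highest mean fell in cytokines with BRD0476 at 6 h for Hspa5, Dnajc3, Pdia4 and Canx, in cytokines with DMSO at 6 h for Dnajb9, Herpud1 and Calr, in BRD0476 alone at 6 h for Hsp90b1 and Pdia6, and in BRD0476 alone at 12 h for Sdf2l1. Canx stands in these orders by the probe set used. Its other probe sets were lowest in cytokines with BRD0476 at 12 h (11.41 and 8.99). They read 11.43 and 9.13 in cytokines with DMSO at 12 h. The brighter of them was highest with DMSO alone at 12 h (11.60). Group means spanned 1.68 for Dnajb9, 1.68 for Herpud1, 1.5 for Sdf2l1 and 1.03 for Calr. The other 6 spanned between 0.30 (Canx) and 0.61 (Pdia6). Within groups the median SD ran from 0.03 for Pdia6 to 0.16 for Dnajb9, and Calr reached an SD of 0.61 in cytokines with DMSO at 12 h. Many neighbours in these orders did not separate. For Herpud1, the mean of 11.06 in cytokines with DMSO at 6 h stood clear of the next group by 0.71 and 9.38 in cytokines with DMSO at 12 h stood below all others, whereas the arrays of BRD0476 alone at 6 h (10.24), cytokines with BRD0476 at 6 h (10.15), DMSO alone at 6 h (10.13) and DMSO alone at 12 h (10.01) overlapped each with the next. For Dnajb9, likewise, cytokines with DMSO at 6 h led by 0.82, and the arrays of most other neighbours overlapped.

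Which of the 10 genes respond to cytokines in DMSO was asked first at 6 h. The co-chaperone gene Dnajb9, the degradation gene Herpud1, the lectin gene Calr, Hspa5 and Sdf2l1 rose, while Hsp90b1 and Pdia6 fell. That is 5 up and 2 down, where 51.7% of all genes were called in this comparison, 24.3% up and 27.4% down. In these bulk samples, fewer cells of a kind and less RNA per cell cannot be told apart.

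Dnajb9 read 10.48, 10.52 and 10.07 with cytokines and DMSO at 6 h, against 8.81, 9.26 and 8.63 with DMSO alone. All 3 cytokine arrays lay above all 3 others, a rise of 1.46 ± 0.14 (2.75-fold, limma adjusted p = 2.34e-08). Herpud1 read 11.19, 11.01 and 10.98 with cytokines, against 10.14, 10.19 and 10.06 without. The groups did not overlap and the rise was 0.93 ± 0.10 (1.91-fold, adjusted p = 3.77e-08). Calr read 10.95, 11.24 and 10.19 with cytokines and 9.77, 9.71 and 9.82 without. The third cytokine array, 1 of the 3 that stood apart, was the low one and still above the controls, for a rise of 1.03 ± 0.25 (2.04-fold, adjusted p = 0.00128). Hspa5, the central chaperone, read 13.39, 13.46 and 13.43 with cytokines and 13.09, 12.94 and 13.16 without, a smaller rise of 0.36 ± 0.06 (1.29-fold, adjusted p = 1.58e-05) with no overlap. Sdf2l1 rose by 0.21 ± 0.07 (adjusted p = 0.0202).

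Hsp90b1, which shares clients with Hspa5, went the other way. It read 12.65, 12.73 and 12.73 with cytokines and 12.93, 13.02 and 12.86 without, a fall with no overlap (-0.24 ± 0.06, adjusted p = 0.00107). The isomerase gene Pdia6 read 12.22, 12.26 and 12.24 with cytokines against 12.53, 12.53 and 12.61 without, again with no overlap (-0.31 ± 0.05, adjusted p = 3.16e-05). Dnajc3 (0.04, 95% interval -0.18 to 0.25), Pdia4 (0.03, -0.12 to 0.18) and Canx (-0.09, -0.22 to 0.04) were not called. With only the 6 arrays compared in the fit, Hsp90b1 (adjusted p = 0.0535) and Sdf2l1 (0.0744) missed the threshold. Sdf2l1 also missed it without cytokine replicate 2 (0.18, adjusted p = 0.0806) or 3 (0.20, 0.0553), without DMSO replicate 2 (0.19, 0.0603) and without the 3 arrays that stood apart (0.0588).

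After 12 h of cytokines in DMSO, 8 of the 10 genes fell, led by Sdf2l1, and only Calr was called higher; 45.9% of all genes were called here, 29.9% down. Dnajc3 was not called (-0.16, 95% interval -0.38 to 0.06). It read -0.24 without the 3 arrays that stood apart, a description with no test.

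Sdf2l1 read 8.59, 8.65 and 8.60 with cytokines and DMSO at 12 h, against 9.89, 10.04 and 9.92 with DMSO alone. The groups lay far apart, with a fall of 1.34 ± 0.07 on the log2 scale, which left 0.395 of the control level (limma adjusted p = 2.79e-12). Herpud1 read 9.69, 9.23 and 9.20 with cytokines against 9.98, 10.00 and 10.06 without (-0.64 ± 0.10, adjusted p = 1.06e-05). Dnajb9 read 8.89, 8.64 and 8.49 with cytokines against 9.31, 9.28 and 9.28 without (-0.62 ± 0.14, adjusted p = 0.00136). Neither overlapped, and both genes had been higher with cytokines at 6 h. Pdia6 read 12.15 on all 3 cytokine arrays, against 12.66, 12.67 and 12.60 without (-0.50 ± 0.05, adjusted p = 9.50e-08). Hsp90b1 read 12.51, 12.61 and 12.58 with cytokines against 13.01, 12.99 and 12.97 without (-0.43 ± 0.06, adjusted p = 1.72e-06). These 2 fell at both times.

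Hspa5 read 13.06, 13.13 and 13.13 with cytokines at 12 h and 13.36, 13.37 and 13.34 without, a fall with no overlap (-0.25 ± 0.06, adjusted p = 0.00116). The isomerase gene Pdia4 fell by 0.30 ± 0.07 (adjusted p = 0.00154) and Canx by 0.19 ± 0.06 (adjusted p = 0.0139), with no overlap either. The other 2 Canx probe sets read -0.17 and -0.19 and were not called. Calr read 10.77, 10.98 and 9.83 with cytokines against 9.90, 9.90 and 9.86 without: replicates 1 and 2 were far above the controls and replicate 3, which stood apart, below them. The change of 0.64 ± 0.25 (adjusted p = 0.0394) was 0.99 without the 3 arrays that stood apart, a description with no test, since Calr follows the score that set them apart. Leaving out 1 array ended the Calr call for every array compared except cytokine replicate 3, with the lowest value without cytokine replicate 2 (0.41, adjusted p = 0.229); replicate 1 gave 0.52, and DMSO replicates 1, 2 and 3 gave 0.64, 0.64 and 0.63.

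**Figure D2:**
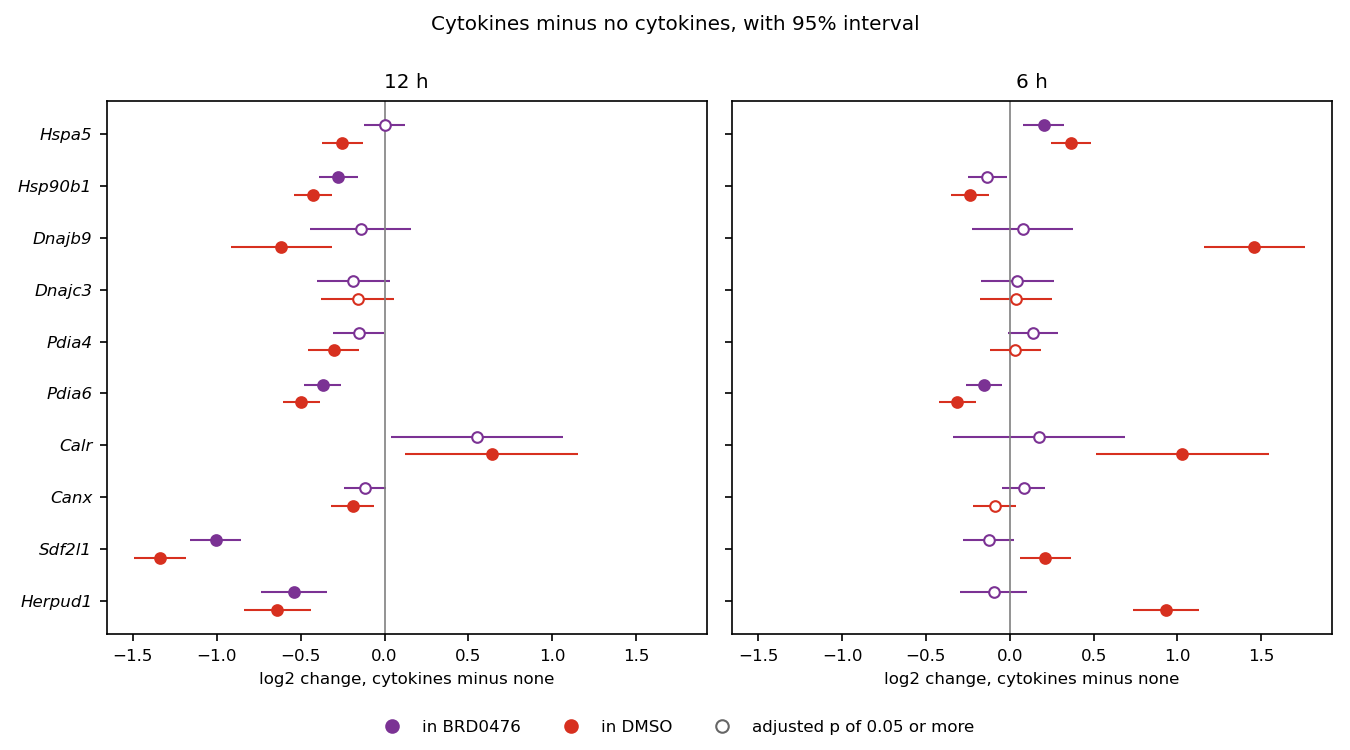
Log2 change, cytokines minus none (horizontal axis), of each gene at 12 h and 6 h, in BRD0476 and in DMSO, with 95% intervals from limma; filled points passed an adjusted p of 0.05. In DMSO Dnajb9, Herpud1, Hspa5 and Sdf2l1 lie right of 0 at 6 h and left of it at 12 h.

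Setting the 2 times against each other, 4 genes rose at 6 h and fell at 12 h (Hspa5, Dnajb9, Sdf2l1 and Herpud1), 2 fell at both (Hsp90b1 and Pdia6), 1 rose at both (Calr), 2 fell at 12 h with no call at 6 h (Pdia4 and Canx), and Dnajc3 was called at neither. The difference of the cytokine effects, 12 h minus 6 h, was called lower for 5 of 10 genes, where 28.8% of all genes were called and 16.9% were lower. It was -2.07 ± 0.20 for Dnajb9 (adjusted p = 1.60e-07), -1.57 ± 0.13 for Herpud1, -1.55 ± 0.10 for Sdf2l1, -0.61 ± 0.08 for Hspa5 and -0.34 ± 0.10 for Pdia4. The cytokine arrays themselves, 12 h against 6 h in DMSO, gave the same 5 genes lower against a background of 41.5% called and 23.1% lower: Herpud1 by -1.68 ± 0.10, Dnajb9 by -1.68 ± 0.14, Sdf2l1 by -1.15 ± 0.07, Hspa5 by -0.32 ± 0.06 and Pdia4 by -0.28 ± 0.07. These 2 comparisons share the cytokine arrays. Same-numbered arrays of cytokines with DMSO at 12 h and 6 h deviated together (r 0.396 to 0.722), so the 12 h against 6 h difference was also fitted on these 6 arrays with the replicate number as a block, an alternative added after the data were seen. With the block the same 5 genes were called. Calr, at -0.27, was not called without the block (limma adjusted p = 0.423). Its call with the block is a description with no test, since the pairing was read from these same arrays. Within the same-numbered arrays, 12 h minus 6 h, Calr differed by -0.18, -0.26 and -0.37, the last between 2 of the arrays that stood apart. With only the arrays compared in the fit, Pdia4 missed the threshold in both (adjusted p = 0.0566 for the difference of effects and 0.0838 for 12 h against 6 h). In untreated cells time did little to most of the 10 genes. With DMSO alone, Hspa5 (0.30 ± 0.06, adjusted p = 0.00665) and Sdf2l1 (0.40 ± 0.07, adjusted p = 0.00408) were higher at 12 h than at 6 h, where 1.67% of all genes were called and 0.464% were higher. Hspa5 read 13.36, 13.37 and 13.34 at 12 h against 13.09, 12.94 and 13.16 at 6 h, beside cytokine changes of this gene in DMSO of -0.25 at 12 h and 0.36 at 6 h. Neither was called with only the 6 arrays compared (adjusted p = 0.168 for Hspa5 and 0.0548 for Sdf2l1), and Dnajb9 (0.39) was called without DMSO replicate 2 at 6 h (0.57, adjusted p = 0.0366).

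With BRD0476 in both arms, the cytokines gave calls for 2 of the 10 genes at 6 h, a share near that of all genes. Hspa5 rose by 0.20 ± 0.06 (limma adjusted p = 0.0148) and Pdia6 fell by 0.15 ± 0.05 (adjusted p = 0.0416), where 20.9% of all genes were called, 10.7% lower and 10.3% higher, against 51.7% called in DMSO. The difference between these counts was not tested. Dnajb9 read 9.36, 9.26 and 9.17 with cytokines and BRD0476, against 9.09, 9.0 and 9.45 with BRD0476 alone. The arrays overlapped and the difference was 0.08 (95% interval -0.22 to 0.38). Herpud1 read 10.23, 10.09 and 10.12 against 10.21, 10.27 and 10.25, which also overlapped (-0.10, -0.29 to 0.10). Calr differed by 0.17 (-0.34 to 0.69). Both calls were marginal: Hspa5 missed the threshold without replicate 3 of cytokines with BRD0476 (0.18, adjusted p = 0.0628), without replicate 3 of BRD0476 alone (0.18, 0.0614) and after median centring (0.17, 0.0608), and Pdia6 missed it without any 1 array of the comparison other than replicate 3 of BRD0476 alone (-0.16 to -0.12).

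At 12 h in BRD0476 the cytokines lowered 4 of the 10 genes, against 27.7% of all genes called and 18.5% lower. Sdf2l1 read 9.17, 9.15 and 9.0 with cytokines and BRD0476 against 10.12, 10.24 and 9.98 with BRD0476 alone. The groups stood well apart (-1.01 ± 0.07, adjusted p = 9.32e-10). Herpud1 read 9.92, 9.75 and 9.75 against 10.37, 10.33 and 10.33 (-0.54 ± 0.10, adjusted p = 0.000178). Pdia6 (-0.37 ± 0.05, adjusted p = 1.41e-05) and Hsp90b1 (-0.28 ± 0.06, adjusted p = 0.000674) fell too, with no overlap of arrays. Hspa5 differed by 0.00 (95% interval -0.12 to 0.12) and Dnajb9 by -0.14 (-0.44 to 0.16). Calr read 10.20, 10.86 and 11.00 against 10.03, 10.09 and 10.30 and was not called (0.55 ± 0.25, adjusted p = 0.108). Without replicate 1 of cytokines with BRD0476, which stood apart, the Calr change was 0.79, a description with no test. Pdia4 was not called (-0.15). It read -0.18 without the 3 arrays that stood apart, a description with no test, since Pdia4 follows their score (r = -0.75).

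The effect of BRD0476 was then read directly against DMSO within cytokine-treated cells. At 6 h it was opposite in sign for different genes: the disulfide isomerases, Hsp90b1 and Canx were higher with BRD0476, and Dnajb9 and Herpud1 were lower. This is 4 up and 2 down, where 44.0% of all genes were called, 24.7% up and 19.4% down. The comparison shares the arrays of cytokines with DMSO with the cytokine comparison above, so the values of both are given side by side without a correlation. Dnajb9 read 9.36, 9.26 and 9.17 with cytokines and BRD0476, against 10.48, 10.52 and 10.07 with cytokines and DMSO. The groups did not overlap (-1.10 ± 0.14, limma adjusted p = 2.28e-06, beside a cytokine change of 1.46 in DMSO). Herpud1 read 10.23, 10.09 and 10.12 against 11.19, 11.01 and 10.98, also without overlap (-0.91 ± 0.10, adjusted p = 9.70e-08, beside 0.93).

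Pdia6 read 12.61, 12.60 and 12.61 with cytokines and BRD0476 at 6 h against 12.22, 12.26 and 12.24 with cytokines and DMSO, a rise with no overlap (0.37 ± 0.05, adjusted p = 6.95e-06, beside a cytokine change of -0.31 in DMSO). Hsp90b1 read 12.94, 13.04 and 12.96 against 12.65, 12.73 and 12.73 (0.28 ± 0.06, adjusted p = 0.000289, beside -0.24). Pdia4 rose by 0.22 ± 0.07 (adjusted p = 0.0148) and Canx by 0.22 ± 0.06 (adjusted p = 0.00465). Canx was called on 1 of its 3 probe sets; the others read 0.02 and 0.03, and their mean gave 0.09 (adjusted p = 0.303). Hspa5, 13.48, 13.47 and 13.53 with BRD0476 against 13.39, 13.46 and 13.43 with DMSO, was not called (0.06, 95% interval -0.06 to 0.18), nor were Sdf2l1 (-0.06, -0.21 to 0.09), Dnajc3 (0.20, -0.01 to 0.42) and Calr (-0.39, -0.90 to 0.13). Pdia4 missed the threshold without cytokine-DMSO replicate 1 (0.19, adjusted p = 0.0719) or 2 (0.17, 0.0919), without replicate 2 of cytokines with BRD0476 (0.20, 0.0605) and with only the arrays compared (0.101). Without cytokine-DMSO replicate 3, which stood apart, Calr read -0.69 and Dnajc3 0.30. Both follow the score that set this array apart (r = 0.96 and -0.54), so these are descriptions with no test.

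At 12 h in cytokine-treated cells BRD0476 gave rises only among the calls: 7 of 10 genes were higher, where 26.9% of all genes were called and 16.3% were higher. All 10 estimates lay above 0, with a median of 0.28 beside 0.04 over all genes. For Canx this held only on the probe set used, as its other probe sets read -0.02 and -0.14. Dnajb9 read 9.32, 9.45 and 9.42 with cytokines and BRD0476, against 8.89, 8.64 and 8.49 with cytokines and DMSO. The groups were apart, and the change was opposite in sign to that at 6 h (0.72 ± 0.14, limma adjusted p = 0.000605). Sdf2l1 read 9.17, 9.15 and 9.0 against 8.59, 8.65 and 8.60 (0.49 ± 0.07, adjusted p = 2.48e-05), so its level stayed below the 9.98 to 10.24 of BRD0476 alone. Hspa5 read 13.52, 13.39 and 13.36 against 13.06, 13.13 and 13.13 (0.32 ± 0.06, adjusted p = 0.000239), which put it at the level of BRD0476 alone. Herpud1 rose by 0.43 ± 0.10 (adjusted p = 0.00164), Pdia4 by 0.29 ± 0.07 (adjusted p = 0.00427), Hsp90b1 by 0.27 ± 0.06 (adjusted p = 0.000854) and Pdia6 by 0.23 ± 0.05 (adjusted p = 0.00253), with no overlap between arrays. Dnajc3 (0.15, 95% interval -0.06 to 0.37), Calr (0.16, -0.35 to 0.68) and Canx (0.11, -0.02 to 0.24) were not called. With only the arrays compared, 4 genes were called, and Hsp90b1 (adjusted p = 0.0582), Pdia6 (0.0896) and Herpud1 (0.0758) missed the threshold. Without the 3 arrays that stood apart Herpud1 was lost (0.29, adjusted p = 0.0582). Dnajc3 then read 0.30, a description with no test.

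**Figure D3:**
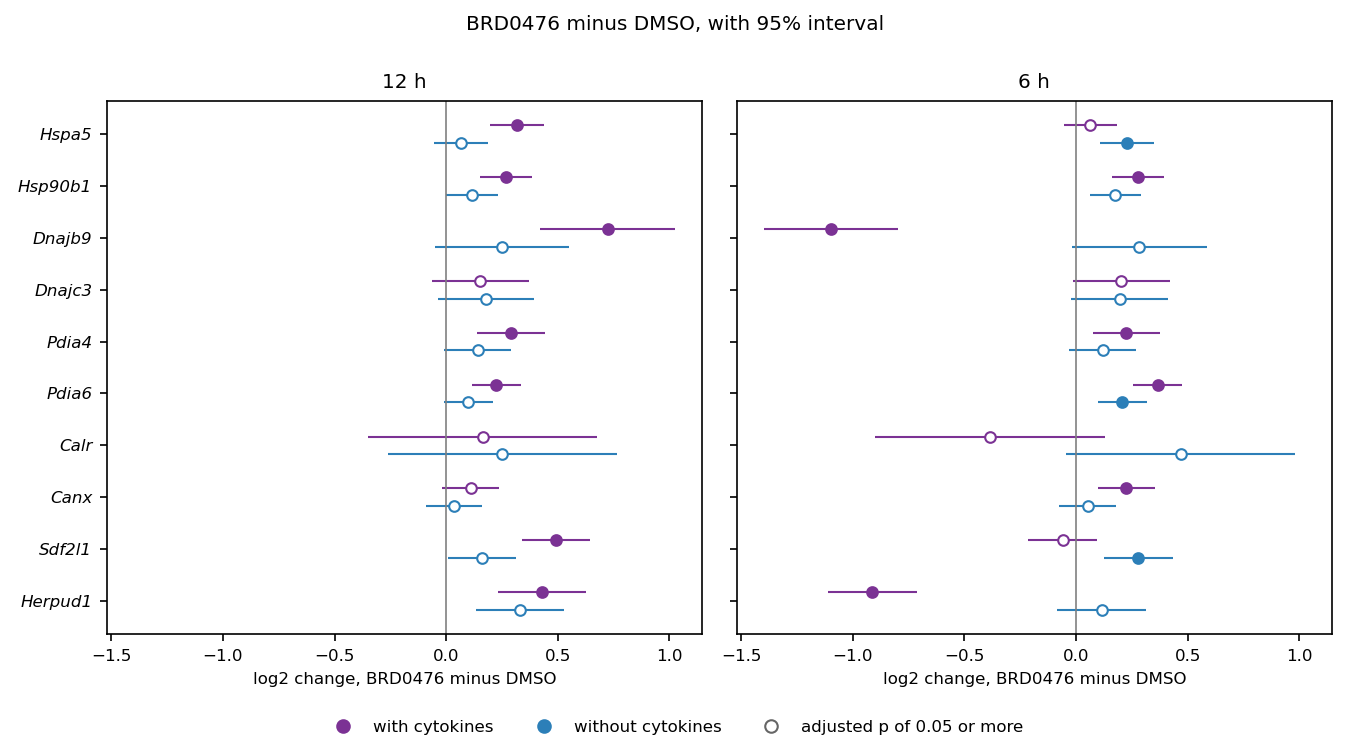
Log2 change, BRD0476 minus DMSO (horizontal axis), of each gene at 12 h and 6 h, with and without cytokines, with 95% intervals from limma; filled points passed an adjusted p of 0.05. With cytokines, Dnajb9 and Herpud1 lie left of 0 at 6 h (-1.10 and -0.91) and right of it at 12 h (0.72 and 0.43).

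Without cytokines the compound gave small rises. At 6 h, 3 of 10 genes were called, all higher, where 3.53% of all genes were called and 1.68% were higher. The arrays of DMSO alone at 6 h also serve the cytokine comparison in DMSO at 6 h and the comparison of times with DMSO alone. Rises of a gene in these comparisons are therefore not separate from each other. For Hspa5 this group had the lowest mean (13.06) and the largest SD (0.11). Hspa5 read 13.31, 13.30 and 13.26 with BRD0476 alone against 13.09, 12.94 and 13.16 with DMSO alone (0.23 ± 0.06, limma adjusted p = 0.0306). Pdia6 read 12.80, 12.83 and 12.66 against 12.53, 12.53 and 12.61 (0.21 ± 0.05, adjusted p = 0.0305), and Sdf2l1 read 9.83, 9.94 and 9.72 against 9.56, 9.52 and 9.58 (0.28 ± 0.07, adjusted p = 0.0378). The arrays of these 3 genes did not overlap. The share of all genes with that pattern at 6 h is not given here, so the lack of overlap is not read as a result. At 12 h, 16.0% of all genes were higher without overlap in the matching comparison. The calls lay near the threshold. None of the 3 was called without DMSO replicate 1 (0.24, 0.19 and 0.28 for Hspa5, Pdia6 and Sdf2l1), without DMSO replicate 2 (0.16, 0.20 and 0.26), or without BRD0476 replicate 1 (0.21, 0.19 and 0.28) or 2 (0.22, 0.17 and 0.22), and Hspa5 was lost without BRD0476 replicate 3 (0.24) and Sdf2l1 without DMSO replicate 3 (0.29). Calr, at 10.17, 10.23 and 10.31 against 9.77, 9.71 and 9.82, did not overlap but was not called (0.47, 95% interval -0.04 to 0.98) under the spread shared by all groups; with only the 6 arrays compared it was (adjusted p = 0.0439).

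At 12 h without cytokines limma called 0 of the 10 genes, where 4.66% of all genes were called. At an unadjusted p under 0.05 there were 3, Hsp90b1, Sdf2l1 and Herpud1, all higher, and 7 of the 9 other settings named in the closing section called 1, Herpud1, while leaving out any 1 of the 6 arrays called 0. That gene read 10.37, 10.33 and 10.33 with BRD0476 alone against 9.98, 10.00 and 10.06 with DMSO alone, groups that did not overlap (0.33 ± 0.10, adjusted p = 0.0512). All 10 estimates lay above 0, from 0.04 for Canx to 0.33, with a median of 0.15 beside 0.01 over all genes. For Canx this held only on the probe set used, as its other probe sets read -0.08 and -0.05. The BRD0476 arrays lay above all DMSO arrays for 8 genes, all but Canx and Sdf2l1, where 16.0% of all genes showed that pattern.

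Whether the BRD0476 effect differs with cytokines was tested as the effect with cytokines minus that without. At 6 h it was lower for 3 genes, Dnajb9 (-1.38 ± 0.20, limma adjusted p = 2.04e-05), Herpud1 (-1.03 ± 0.13, adjusted p = 4.72e-06) and Sdf2l1 (-0.34 ± 0.10, adjusted p = 0.0157), where 33.2% of all genes were called and 14.4% were lower. Sdf2l1 missed the threshold without replicate 2 of BRD0476 alone (-0.28, adjusted p = 0.0523). Calr was not called (-0.85 ± 0.35, adjusted p = 0.0661). Without cytokine-DMSO replicate 3 the Calr value was -1.16, a description with no test. At 12 h Sdf2l1 (0.33 ± 0.10, adjusted p = 0.0340) and Hspa5 (0.25 ± 0.08, adjusted p = 0.0419) were higher, where 15.3% were called and 8.38% were higher. Neither call at 12 h was firm: without the 3 arrays that stood apart the values were 0.30 (adjusted p = 0.116) and 0.22 (adjusted p = 0.111). Leaving out single arrays ended the Hspa5 call for every array but replicate 3 of both cytokine groups (0.20 to 0.27), and the Sdf2l1 call without replicates 1 or 3 of BRD0476 alone, 1 or 3 of cytokines with DMSO, 1 or 2 of cytokines with BRD0476, or 2 of DMSO alone (0.26 to 0.34). The BRD0476 effect with cytokines, 12 h minus 6 h, was higher for 4 genes against a background of 25.0% called and 11.9% higher: Dnajb9 (1.82 ± 0.20, adjusted p = 1.52e-06), Herpud1 (1.34 ± 0.13), Sdf2l1 (0.55 ± 0.10) and Hspa5 (0.25 ± 0.08, adjusted p = 0.0272). Hspa5 was lost without replicate 1 or 2 of cytokines with BRD0476 at 6 h (0.25 and 0.24), replicate 2 of cytokines with DMSO at 6 h (0.24), replicate 1 of cytokines with DMSO at 12 h (0.23) or replicate 1 of cytokines with BRD0476 at 12 h (0.21).

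**Figure D4:**
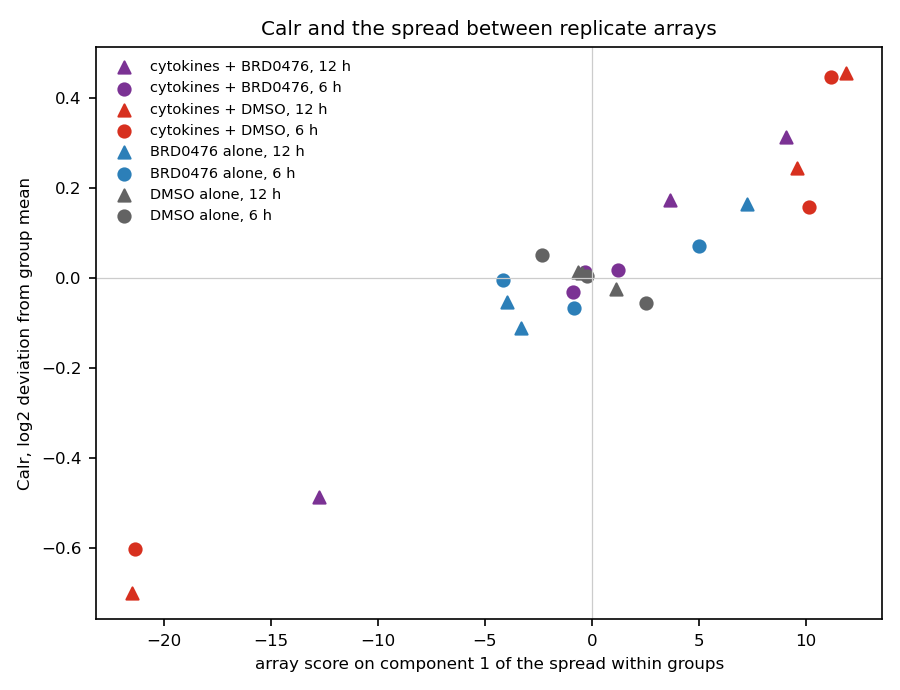
Deviation of Calr from its group mean (vertical axis, log2) against the score of each of the 24 arrays on the first component of the spread within groups (horizontal axis, no unit). The 3 arrays that stood apart, all with cytokines, lie at the lower left, with Calr 0.49 to 0.70 below their group means.

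Calr differed from the other 9 genes in its spread between replicates. Its deviations from the group means followed the first component of that spread with r = 0.96 over 24 arrays, whose RNA is also what the component was computed from. Replicate 3 of cytokines with DMSO at 12 h lay at -0.70, replicate 3 of cytokines with DMSO at 6 h at -0.60 and replicate 1 of cytokines with BRD0476 at 12 h at -0.49. The same coefficient was -0.75 for Pdia4, 0.66 for Dnajb9, -0.54 for Dnajc3 and within 0.38 of 0 for the other 6 genes. Values without the 3 arrays are therefore descriptions with no test for this gene. The cytokine change in DMSO was 0.99 without them and 0.64 with all arrays at 12 h, and 1.33 and 1.03 at 6 h. The difference of BRD0476 from DMSO in cytokine-treated cells at 6 h was -0.69 without them and -0.39 with all arrays, where it was not called (adjusted p = 0.225). The BRD0476 effect with cytokines, 12 h minus 6 h, was 0.74 without them and 0.55 with all arrays, again not called (adjusted p = 0.283).

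Lists of other ER genes are given by their counts, to be read beside the shares of all genes called. With cytokines in DMSO these shares were 16.0% higher and 29.9% lower at 12 h, and 24.3% higher and 27.4% lower at 6 h. With BRD0476 against DMSO in cytokine-treated cells they were 16.3% higher and 10.6% lower at 12 h, and 24.7% higher and 19.4% lower at 6 h. Of 18 measured sensors and factors of ER stress (Ern1, the gene of Ire1, had no named probe set), 15 were higher with cytokines in DMSO at 6 h and the other 3 were not called, with a median change of 0.78. Their number was 10 at 12 h (median 0.28), again with no member called lower. Eif2ak3, the gene of Perk, rose by 0.60 at 6 h and Xbp1 by 0.49, whereas at 12 h they read 0.06 and -0.09 and were not called. Atf6 rose by 0.20 at 12 h and by 0.30 at 6 h, and Atf4, a factor translated under stress, by 0.79 and 1.0. Ddit3 (CHOP), a factor tied to cell death under ER stress, rose by 1.53 at 12 h and by 4.24 at 6 h. Chac1, a glutathione-degrading enzyme under Atf4 control, rose by 2.61 at 12 h. In cytokine-treated cells at 6 h, 15 of the 18 were lower with BRD0476 than with DMSO and 3 were not called (median -0.51), Atf3, a stress-induced factor, by -2.40, Ddit3 by -2.11, Xbp1 by -0.29 and Atf6 by -0.24. At 12 h 7 were lower and 3 higher, Ddit3 among the lower at -0.69 and Xbp1 among those 3 at 0.39. Without cytokines BRD0476 gave 5 of 18 higher at each time, with Chac1 at 1.66, Trib3, a pseudokinase, at 0.95 and Atf4 at 0.83 at 12 h. Of all genes, 4.66% were called in either direction at 12 h, and 1.68% were called higher at 6 h.

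Among 41 other ER folding enzymes and chaperones, 18 were lower and 5 higher with cytokines in DMSO at 12 h (median -0.14), and 14 lower and 10 higher at 6 h. At 6 h this is 34.1% lower and 24.4% higher. Uggt1, which marks misfolded glycoproteins for another folding round, rose by 1.15 at 12 h and 1.42 at 6 h, and Ero1a, an oxidase that recharges the isomerases, fell by 0.82 at 12 h. Mogs, a glucosidase that trims new glycans, fell by 0.98 at 6 h. With BRD0476 against DMSO in cytokine-treated cells, 14 of the 41 were higher and 1 lower at 12 h and 17 were higher and 4 lower at 6 h, with Mogs at 0.50 and 1.05 and Ero1a at 0.54 at 12 h. Without cytokines 6 of the 41 were higher at each time, led by Manf, a secreted ER stress factor, at 0.35 at 12 h and 0.44 at 6 h. The shares of all genes were 4.66% called in either direction at 12 h and 1.68% higher at 6 h. Of 24 genes of the translocon, signal peptidase and N-glycosylation, 11 were lower and 2 higher with cytokines in DMSO at 12 h, and 8 lower and 3 higher at 6 h. Dad1, a subunit of the oligosaccharyl transferase, fell by 0.39 at 12 h and by 0.77 at 6 h. BRD0476 raised 10 and lowered 1 of them in cytokine-treated cells at 12 h, and raised 16 and lowered 1 at 6 h, Dad1 by 0.84.

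In ER-associated degradation, which takes misfolded proteins out of the ER, 9 of 25 genes were lower and 4 higher with cytokines in DMSO at 12 h, and 6 lower and 5 higher at 6 h. These are 36% lower and 16% higher at 12 h, and 24% lower and 20% higher at 6 h, near the shares of all genes. Edem1, a lectin of this route, rose by 1.13 at 12 h, and Sel1l, the scaffold of the Hrd1 ligase, fell by 0.51. With BRD0476 against DMSO in cytokine-treated cells, 5 were higher and 2 lower at 12 h and 14 were higher and 7 lower at 6 h. Of 12 genes of ER calcium handling, 4 were higher and 2 lower with cytokines in DMSO at 12 h, and 3 higher and 1 lower at 6 h. Atp2a2, a calcium pump of the ER membrane, fell by 0.65 at 12 h, and BRD0476 raised it by 0.56 in cytokine-treated cells at that time. Over all genes the median changes lay between -0.04 and 0.04 in these comparisons. Several of these genes also followed the 3 arrays that stood apart, Os9 with r = 0.98, Uggt1 with r = 0.95 and Xbp1 with r = 0.84, and their part in these counts was not tested. Without the 3 arrays the cytokine counts in DMSO were 11 higher at 12 h and 16 higher at 6 h for the ER stress list, and 19 lower and 8 higher at 12 h and 15 lower and 12 higher at 6 h for the folding list.

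**Figure D5:**
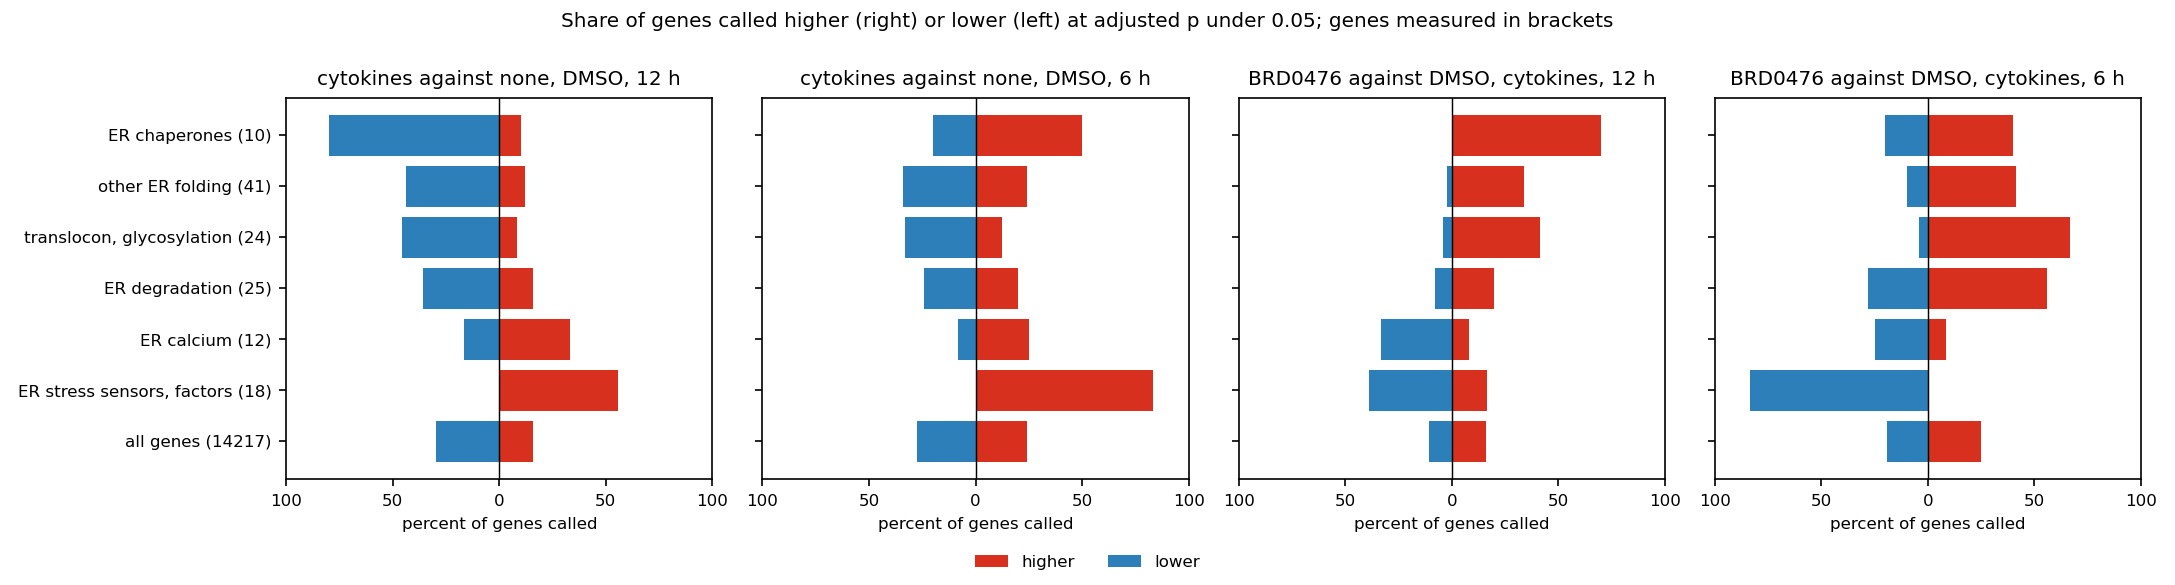
Percent of the genes of each ER list (horizontal axis) called higher, to the right, or lower, to the left, at an adjusted p under 0.05 in 4 comparisons; the number of measured genes stands in brackets, and the bottom row is all 14217 genes. The ER stress list points right with cytokines and left with BRD0476 at 6 h, whereas 8 of the 10 chaperone genes point left with cytokines at 12 h.

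Among themselves the 10 genes fell into profiles that are given as descriptions over the 24 arrays, which share the 8 treatments. Hsp90b1 and Pdia6 followed each other most closely (Pearson's r = 0.94), and Canx (0.77 and 0.76) and Sdf2l1 (0.76 and 0.77) followed both. Dnajb9 followed Herpud1 (0.84), and Dnajc3 followed Pdia4 (0.83). Calr ran against Pdia6 (-0.53) and Hsp90b1 (-0.45). Of all genes outside the set, the one most like Hspa5 was Manf (r = 0.87), with group means of 11.17 in cytokines with BRD0476 at 6 h, 11.09 in cytokines with DMSO at 6 h and 10.61 with DMSO alone at 6 h. Dop1a and Map2k3os followed (0.85 each), then Itgb2, Gmppb, Spring1 and Mtg2 (0.85 to 0.84) and Clba1 (0.83). Itgb2 had group means of 3.79 to 4.09, near the lower quartile of all values, so its likeness is one of dim signal. Most like the mean of the 10 genes were Enkd1 and Nat14 (0.93 each), Cnnm2 and Hdac5 (0.92 each), and Inpp5j, Cdip1, Cryzl2 and Smco4 (0.91 each).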

How the data were processed

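Single-colour Affymetrix arrays of 24 INS-1E samples were deposited as linear intensities that the authors made with RMA (background correction, quantile normalization and probe summary), per the submitters' processing notes. Which RMA version and probe set definition were used, and how log2 values were made linear again, is not given in the sources used here. Here log2 was taken, 57 control probe sets were left out of 31099, and each of 14217 genes was read from its named probe set with the highest mean (20826 probe sets had 1 symbol). One fit of 8 group means with limma 3.58.1 (lmFit and eBayes, R 4.3.3, 16 residual degrees of freedom) gave 14 comparisons, each adjusted by Benjamini-Hochberg over all genes, called at 0.05 and tested on simulated data. All 10 genes, and by fixed rule the called genes with the largest change in each ER list and the stress genes Eif2ak3, Atf6, Xbp1, Atf4 and Ddit3, are named. The members and lists were chosen with earlier results of these data known. Same-numbered arrays deviated together in 2 of 28 pairs of groups, of which 1 is compared, cytokines with DMSO at 12 h and 6 h (r 0.396 to 0.722). The mean correlation of same-numbered arrays exceeded that of other-numbered arrays in 10 of the 28. Replicate 3 stood apart in both groups of the compared pair, and the labels state no pairing. The fit with the replicate block was chosen on these values and is given beside the result as a description. RefSeq promoters (GRCr8) were searched by exact match.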

Additional observations from a re-analysis of the deposited data

Results flagged for a closer look

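Effects that differed between conditions by a test of the difference itself, in limma over all genes, are listed here with no explanation. The cytokine effect in DMSO, 12 h minus 6 h, differed for Dnajb9 (-2.07), Herpud1 (-1.57), Sdf2l1 (-1.55), Hspa5 (-0.61) and Pdia4 (-0.34). The BRD0476 effect with cytokines, 12 h minus 6 h, differed for Dnajb9 (1.82), Herpud1 (1.34), Sdf2l1 (0.55) and Hspa5 (0.25). The BRD0476 effect with cytokines minus that without differed at 12 h for Sdf2l1 (0.33) and Hspa5 (0.25), and at 6 h for Dnajb9 (-1.38), Herpud1 (-1.03) and Sdf2l1 (-0.34). The 2 Hspa5 differences of BRD0476 effects and that of Sdf2l1 at 12 h were lost on leaving out single arrays. So was that of Sdf2l1 at 6 h without replicate 2 of BRD0476 alone (adjusted p = 0.0523), and that of Pdia4 was lost with only the arrays compared (adjusted p = 0.0566).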

How the results depend on the processing

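No change of the 10 genes turned its direction where it was called: of the member values under the alternatives, 2301 kept their side of the threshold, 94 lost a call and 55 gained one. With cytokines against none in BRD0476 at 6 h, 2 genes were called and 1 with the replicate block, quantile normalization, every probe set or only the arrays compared (0 to 1 leaving out single arrays); at 12 h, 4 became 7 with array weights. For BRD0476 against DMSO with cytokines at 12 h, 7 became 4 with only the arrays compared. Without cytokines at 6 h, 3 became 5 with array weights, 0 with every probe set and 1 with only the arrays compared (0 to 2 leaving out single arrays). At 12 h, 0 became 1 with the replicate block, median centring, quantile normalization, dim genes left out, an intensity trend with robust prior, array weights or only the arrays compared. For 12 h against 6 h with DMSO alone, 2 became 0 with only the arrays compared. For the BRD0476 effect with cytokines minus without, 3 became 5 at 6 h with trend and robust prior; at 12 h, 2 became 1 with the replicate block or only the arrays compared and 0 with median centring, every probe set or the 3 arrays apart left out (0 to 2 leaving out single arrays). The mean of probe sets turned Atp2a2 and Tmbim6, which suppresses ER-linked cell death, for 12 h against 6 h with cytokines (0.215 and -0.0625) and for the cytokine effect, 12 h minus 6 h (0.0930 and -0.0787). The cause of these shifts was not tested. With 3 arrays a group, the median standard error of a difference over all genes was 0.102.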
